A study of Canis lupus familiaris with 29 samples.

Results

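The genes described here were those whose average level was similar in B-cell and T-cell lymphomas of golden retrievers but whose level varied mainly from one B-cell tumour to the next. Expression was given as FPKM, fragments scaled to transcript length and to the mapped fragments of a library, and y denotes log2(FPKM + 1). Of 16382 Ensembl gene IDs, 11552 reached 1 FPKM in at least 5 libraries. A class-neutral gene was one of these whose mean y differed by less than 1 between the phenotypes and whose phenotypes overlapped, which held for 10230. The 100 class-neutral genes with the largest excess of the standard deviation (SD) of y over B-cell libraries above that over T-cell libraries were the members. They were thus chosen by measured values, namely the SD and mean of y in each phenotype, so the spreads, means and skewness of the members are given as a description and without a test.

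The study held RNA sequencing libraries of 20 lymphomas labelled B-cell and 9 labelled T-cell, 1 library a sample, with no untreated or healthy group. The B-cell dogs were 9 females and 11 males, of which 17 were neutered and 3 intact, aged 2.0 to 14.0 years at diagnosis. The T-cell dogs were 6 females and 3 males, of which 6 were neutered and 3 intact, aged 4.5 to 11.9 years. The labels name neither the biopsy site nor the way phenotype was assigned, and leave unstated whether all libraries came from different dogs. The p-values therefore measure only the spread among the libraries, part of which may be technical. Libraries are numbered within a phenotype in accession order.

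Lymphoma is a cancer of lymphocytes. Tumours of the B lineage arise from the cells that make antibodies, and tumours of the T lineage from the cells that recognise antigen on other cells. A piece of lymphoma tissue also holds cells that are not malignant, such as residual lymphocytes, macrophages, vessel cells and the connective tissue cells that build collagen. Genes used by any of these can therefore differ between tumours of one phenotype. In bulk tissue, fewer cells of a type and less RNA per cell cannot be told apart.

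The expression table and the gene table used here pair no Ensembl ID with a symbol (0 of 16382 matched), so roles of the members, the lineage markers behind each label and sequences were not analysed here. Members are therefore described by their values and by rank, rank 1 having the largest excess of SD, with 4 given by ID. Summed FPKM ran from 319067 to 677096 over the 29 libraries. FPKM carries no fragment counts, but the steps of the lowest values gave depth relative to B-cell library 1. This relative depth ran from 0.930 to 2.21 over B-cell and from 0.522 to 1.72 over T-cell libraries. B-cell library 8, the deepest at 2.21 with library 11 next at 2.16, stood apart in the members. The correlations, the spread of the largest group, the choice of members and the models are also given without library 8.

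The members varied widely among B-cell tumours, while their spread among T-cell tumours was close to that of class-neutral genes. The rule chose genes for a contrast in spread. In 21 members no T-cell library reached 1 FPKM, which limits their SD over T-cell libraries. The median SD of y over the 100 members was 1.30 over B-cell libraries (0.60 to 2.69) and 0.49 over T-cell libraries (0 to 1.31). Over the class-neutral genes the medians were 0.37 and 0.47, and 30.3% of those genes varied more in B-cell tumours. For 81 of the 100 members the 9 T-cell libraries lay wholly inside the B-cell range, against 17.4% of class-neutral genes. The gene of rank 100 had an excess of 0.5579 (SDs of 1.75 and 1.19) and the first gene outside one of 0.5577 (0.91 and 0.35), so the limit falls on no break in the values.

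**Figure D1:**
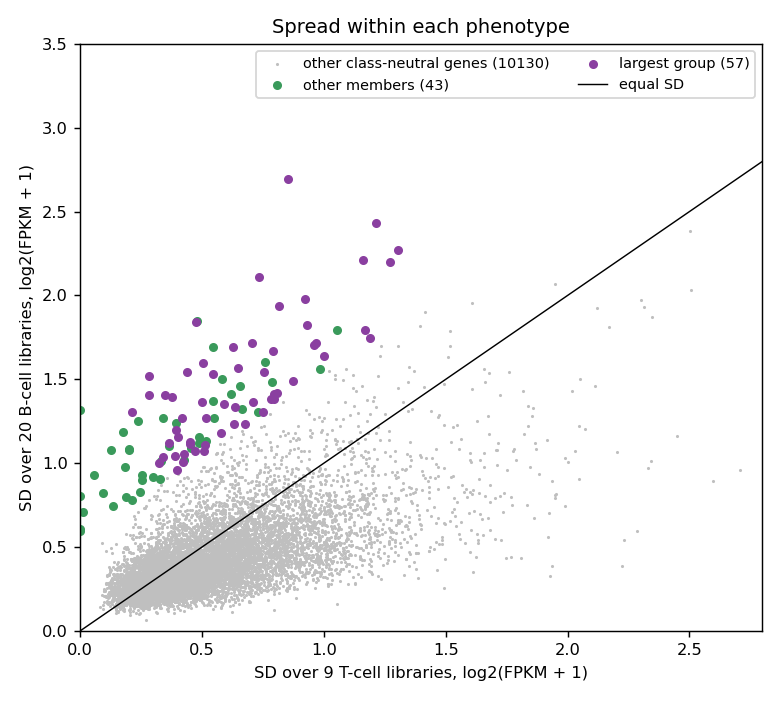
SD of log2(FPKM + 1) of each class-neutral gene over the 9 T-cell libraries (horizontal) and the 20 B-cell libraries (vertical), with the 57 members of the largest co-varying group in purple, the other 43 members in green and the remaining class-neutral genes in grey. The members form the upper left edge of the cloud, as the rule requires, with B-cell SDs from 0.60 to 2.69.

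The members were mostly low in the usual tumour and high in a few. Mean FPKM over the 20 B-cell libraries had a median of 5.07 over members, against 13.7 over class-neutral genes. Over all libraries 53 members averaged under 5 FPKM, compared with 24.5% of class-neutral genes. The distribution of y over B-cell tumours was skewed upwards in 95 of 100 members, compared with 56.0% of class-neutral genes. At least 1 B-cell library stood 4-fold or more above the gene's B-cell median, on the FPKM + 1 scale, in 91 members. This held for 5.84% of class-neutral genes. At least 1 stood 4-fold or more below that median in 11 members, against 1.76% of class-neutral genes. In 21 members no T-cell library reached 1 FPKM, against 53 of the 10230 class-neutral genes. Of the 21, 4 were listed at 0 in all 9 T-cell libraries, as were 4 of all class-neutral genes, members included. Those 21 passed the expression filter through B-cell libraries alone.

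Members differed in which tumours carried their spread. Tree clustering of their Pearson correlations over the 20 B-cell libraries, divided at a correlation of 0.5, gave 1 group of 57 genes. The other 43 members fell into 10 sets of 2 to 4 genes (27 genes) and 16 genes on their own. The group held 7 of the 10 top-ranked members, including ranks 1 and 2. Its genes correlated pairwise at a median r of 0.85 over B-cell libraries (interquartile range 0.77 to 0.90, 1596 pairs), against a median of 0.01 between class-neutral genes. Genes of a tree group correlate by construction. These correlations share the same 20 libraries and their scaling and are a description.

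**Figure D2:**
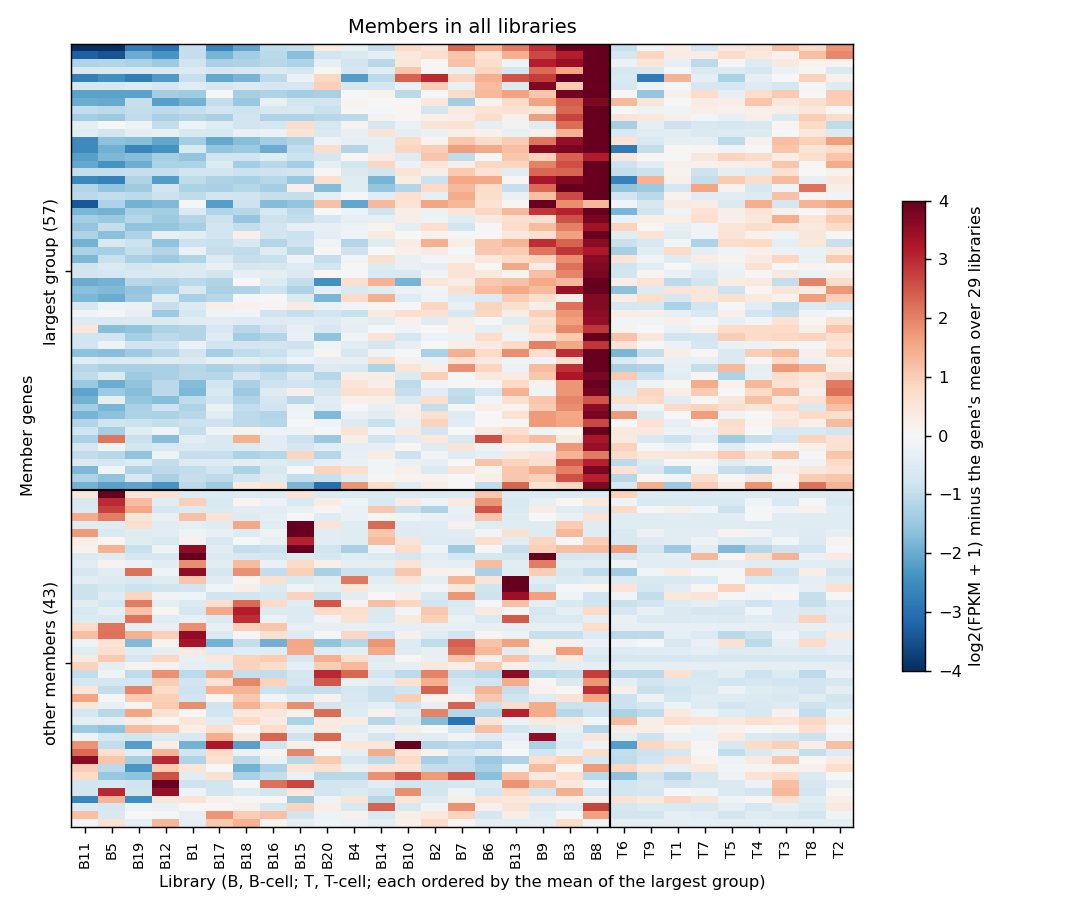
Members (rows) in each library (columns), as log2(FPKM + 1) minus the gene's mean over 29 libraries, with B-cell libraries on the left and T-cell libraries on the right, each ordered by the mean of the 57-gene group. Colours stop at 4 to either side. In the upper block B8, B3 and B9 are high and B11, B5, B19 and B12 low for most genes, and in the lower block single tumours stand high for a few genes each.

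The 57-gene group formed a gradient over B-cell tumours that reached both above and below the T-cell tumours. The mean y of the group was 6.58 in B-cell library 8, 4.71 in library 3 and 3.86 in library 9. In the other 17 B-cell libraries it ran from 1.03 to 3.105, with a median of 1.82. It ran from 2.14 to 3.12 in the 9 T-cell libraries, with a median of 2.47. Thus 3 B-cell libraries lay above all T-cell libraries, 7 within their range and 10 below all of them. The SD of the group mean was 1.36 over the 20 B-cell libraries and 0.32 over the 9 T-cell libraries. It was 0.96 over B-cell libraries without library 8 and 0.65 without libraries 3, 8 and 9.

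**Figure D3:**
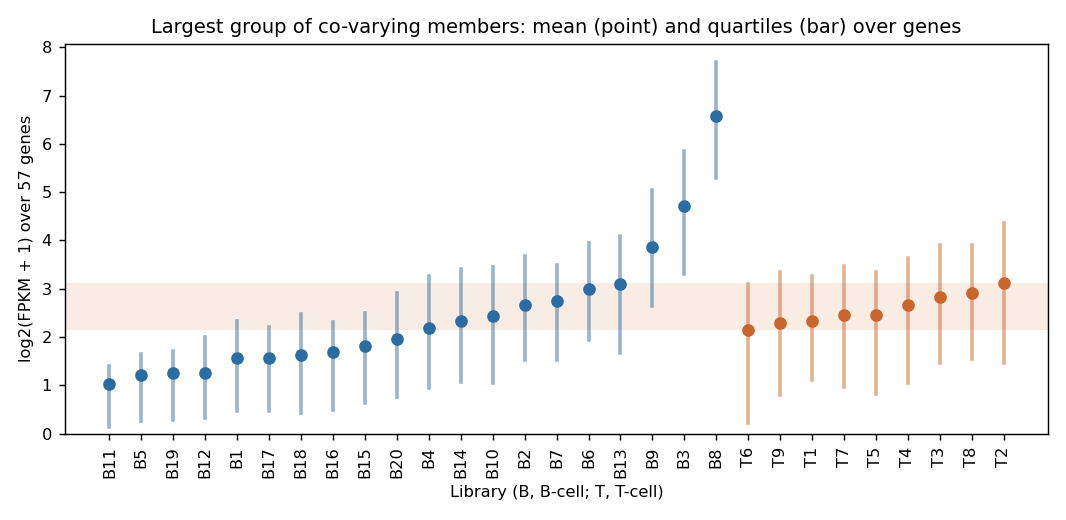
Level of the 57-gene group in each library as log2(FPKM + 1), with the mean over genes as a point and the quartiles over genes as a bar, B-cell in blue and T-cell in orange. The shaded band spans the T-cell means from 2.14 to 3.12, and B9, B3 and B8 lie above it at 3.86, 4.71 and 6.58.

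The whole group was high in B-cell library 8, most of it in library 3 and less of it in library 9. B-cell library 8 was at least 4-fold above the median of the 17 other libraries, on the FPKM + 1 scale, for 57 of 57 genes, with a median difference in y of 4.50 (2.16 to 7.82). The group mean of library 8 exceeded the median of those 17 by 4.77 in y, and by 5.63 with a pseudocount of 0.1. The same 4-fold limit was passed by 3.48% of class-neutral genes in that library. B-cell library 3 passed the same limit for 47 of the 57 (median difference 2.70) and library 9 for 24 (median difference 1.75), against 1.77% and 0.67% of class-neutral genes. Library 8 lay above library 3 in 56 of the 57 genes, and library 3 above library 9 in 47. Because the group was formed on these libraries, these counts describe it and support nothing further.

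At the other end of the gradient, 4 B-cell libraries shared the lowest places. B-cell libraries 11, 5, 19 and 12 had group means of 1.03, 1.22, 1.25 and 1.25. They were among the 3 lowest B-cell libraries, ties included, for 38, 34, 28 and 29 of the 57 genes. In B-cell library 11, 35 of the 57 genes lay below all 9 T-cell libraries, and in library 5, 33 did.

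The group took 2.37% of all FPKM in B-cell library 8, 0.793% in library 3 and 0.418% in library 9. In the other 17 B-cell libraries its share ran from 0.0366% to 0.319%, and in T-cell libraries from 0.122% to 0.294%. In library 8, 24 of the 57 genes reached 100 FPKM, compared with 8 in library 3 and 6 in library 9. So the top of the gradient included abundant transcripts. At its lower end the median over the 57 genes was 0.646 FPKM in library 5.

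The highest-ranked member, ENSCAFG00000006142, was the clearest case. It ran from 0.756 FPKM in B-cell library 11 to 1776 FPKM in library 8, with a median of 22.6 FPKM over the 20 B-cell libraries. The next highest B-cell libraries were 3 at 626 FPKM and 9 at 270 FPKM. Over the 9 T-cell libraries it ran only from 18.1 to 120 FPKM, with a median of 44.0 FPKM. The phenotypes overlapped, with B-cell tumours on both sides of the T-cell range, and the SD of y was 2.69 among B-cell tumours and 0.85 among T-cell tumours.

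ENSCAFG00000006138, of rank 2, followed the same tumours at a lower level. It ran from 0.227 FPKM in B-cell library 5 to 323 FPKM in library 8, with a median of 7.44 FPKM. Over T-cell libraries it ran from 7.18 to 49.3 FPKM, with a median of 16.9 FPKM. In all 29 libraries ENSCAFG00000006142 was the higher of the 2 genes, by a ratio of FPKM from 1.37 to 6.31 with a median of 2.94. Their y correlated at r = 0.98 over the 20 B-cell libraries, and again at 0.98 without library 8. Over the 9 T-cell libraries r was 0.72.

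The remaining 2 genes given by ID were the highest-ranked members with downward skewness in B-cell tumours. ENSCAFG00000013401, of rank 52, was well expressed in most tumours and low in some. It ran from 5.46 FPKM in B-cell library 19 and 7.83 FPKM in library 18 to 105.6 FPKM in library 8, with a median of 32.2 FPKM. Its T-cell values ran from 25.2 to 57.2 FPKM with a median of 36.6 FPKM, inside the B-cell range. It was not in the 57-gene group, and its correlation with the group mean over B-cell libraries was 0.37.

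ENSCAFG00000002100, of rank 55, was a low gene, at or next to 0 in every T-cell tumour. It ran from 0 to 3.21 FPKM over B-cell libraries, with a median of 1.03 FPKM. It reached 1 FPKM in 11 of 20 B-cell libraries and was listed at 0 in B-cell libraries 9, 15 and 19. Of the T-cell libraries 8 were listed at 0 and T-cell library 7 stood at 0.0211 FPKM. Its skewness of -0.08 was slight, so it had a broad range rather than a tail of low tumours.

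**Figure D4:**
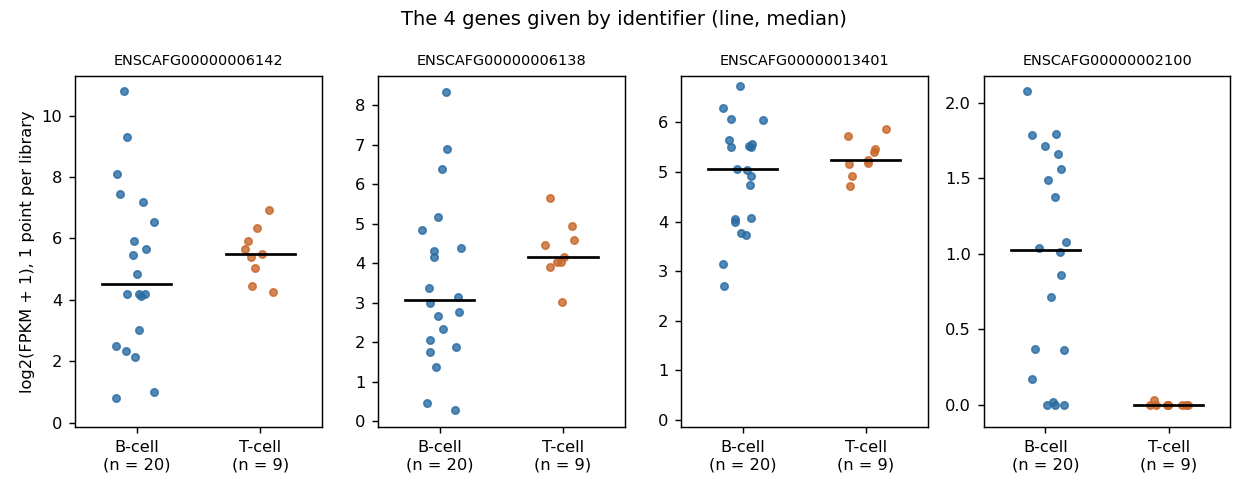
Expression of the 4 genes given by ID, with log2(FPKM + 1) on the vertical axis (a separate scale in each panel), 1 point per library and a line at the median, for 20 B-cell (blue) and 9 T-cell (orange) libraries. B-cell points extend above and below the T-cell points in the first 3 panels, and in the last the T-cell points lie at or next to 0.

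B-cell library 8 carried much of the spread of the group. Of the sum of squares of y over B-cell libraries, library 8 held a mean of 44.1% over the 57 genes, followed by library 3 with 13.4% and library 9 with 6.27%. Over the class-neutral genes library 8 held 7.36%, and the largest mean share there was 16.9%, held by library 5. In 24 of the 100 members a single library held more than 50% of the sum of squares, compared with 10.2% of class-neutral genes. Of those 24, 18 were in the group. Library 8 held the largest share in 59 of the 100 members, and these counts were not repeated without it.

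**Figure D5:**
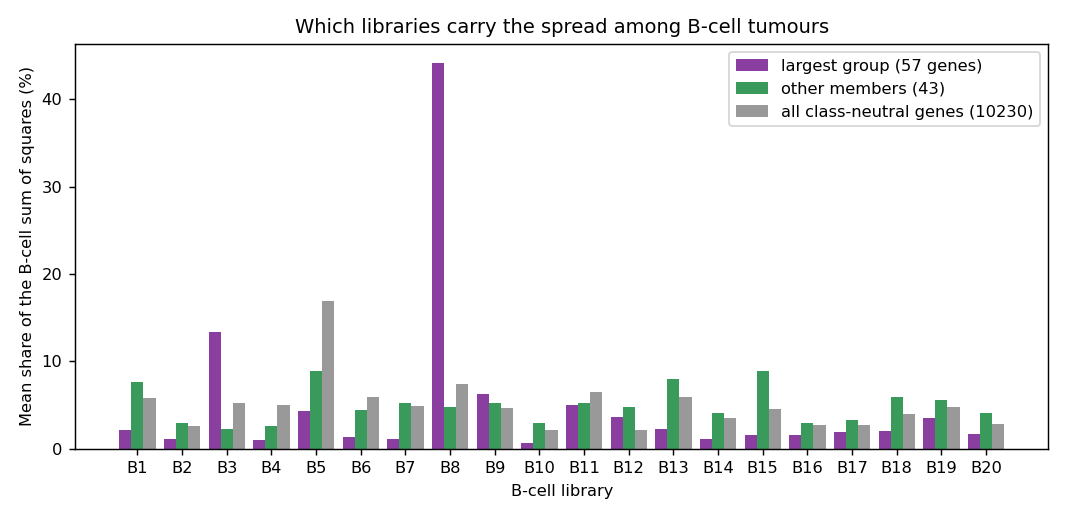
Mean share of the sum of squares of log2(FPKM + 1) over B-cell libraries that each library holds (bars from 0), for the 57-gene group, the other 43 members and all 10230 class-neutral genes. Library B8 holds 44.1% in the group and 4.84% in the other members, and library B5 holds 16.9% over the class-neutral genes.

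The co-variation of the group remained without library 8. The other 19 B-cell libraries had also formed the group, so the correlations given here are a description. Without library 8 the 57 genes correlated pairwise at a median r of 0.75. When the tree was built anew, 55 of the 57 fell into 1 group. Without libraries 3, 8 and 9 the median was 0.59, and the largest group held 40 genes, each of them from the 57. Membership rested on library 8 more than the correlations did. When the rule was applied without it, 66 of the 100 members were chosen again, of which 24 were in the group. The SD over the remaining 19 B-cell libraries exceeded that over T-cell libraries in 57 of the 57 genes, and without libraries 3, 8 and 9 in 46. These SDs overlap with the values that chose the genes and support nothing.

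Among T-cell tumours, whose correlations the rule did not use, the group co-varied weakly. Over the 9 T-cell libraries the 1596 pairs had a median r of 0.23 (interquartile range -0.05 to 0.47), compared with 0.00 between class-neutral genes. With 9 libraries and small spreads this is a description only.

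Genes outside the members shared the gradient. A correlation of at least 0.8 with the group mean over the 20 B-cell libraries was found for 397 of the 11552 genes, of which 52 were in the group and 345 were not members. Of these 345, 296 were class-neutral, 49 had a mean y at least 1 higher in T-cell tumours and 0 had one at least 1 higher in B-cell tumours. None of the 11552 genes had a correlation of -0.8 or lower. Without library 8, 147 non-members passed the same limit, 138 of them also with it. The 345 non-members had a median SD of 0.78 among B-cell tumours and of 0.67 among T-cell tumours. Of the 345, 225 had the larger SD among B-cell tumours.

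The gradient was set beside genes that mark the other phenotype. The 840 genes with a mean y at least 1 higher in T-cell tumours had a mean y of 1.87 to 3.19 over B-cell libraries (median 2.38), and of 3.74 or more in each T-cell library. B-cell libraries 3, 8 and 9, the highest for the group, stood at 3.01, 2.91 and 2.50 for these genes and ranked 3, 4 and 8 of 20. B-cell library 13, the highest of the 20 for these genes at 3.19, had a group mean of 3.105. Library 4 came next at 3.02, with a group mean of 2.20. Library 15, at 2.79 for these genes, had a group mean of 1.82, below all T-cell libraries. The part of T-cell signal in the group level was not tested.

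The 43 other members formed no second large set at the tree limit used. Their pairwise correlations over B-cell libraries had a median of -0.02, and 15 of the 20 B-cell libraries were the highest for at least 1 of them. The tree left these genes outside the group, so low correlations between them were in part built in. These genes were low, with a median of 2.39 for their mean FPKM in B-cell tumours and of 0.305 in T-cell tumours. Of the 43, 31 stood 4-fold or more above the gene's median in 1 to 3 B-cell tumours, 3 in 4 or more and 9 in none. In 35 of the 43 the mean y was higher in B-cell tumours, and in 19 no T-cell library reached 1 FPKM.

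Small sets of these genes were high in single tumours. A set of 4 was highest in B-cell library 5, with a mean y of 5.36, followed by 3.13 in library 6, and a B-cell median of 1.33. A second set of 4 stood at 5.11 in B-cell library 15 and at 2.01 in the next library, 14. A set of 3 stood at 5.39 in B-cell library 13 against 2.27 in library 7. Another set of 3 was high in 2 tumours, at 4.25 in B-cell library 1 and 3.33 in library 9, with a median of 0.50. In these 4 sets the highest T-cell library reached a mean y of 0.86 to 1.76. Each set was read from the same values that formed it.

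The member of rank 3 was an extreme of this kind. It stood at 299 FPKM in B-cell library 5, which held 87.0% of its sum of squares over B-cell libraries. Its median was 0 FPKM over B-cell libraries, and it reached 1 FPKM in 5 of them and in 1 T-cell library, at 1.71 FPKM. The member of rank 5 was listed at 0 in all 9 T-cell libraries and in 12 of 20 B-cell libraries, and its highest value was 34.0 FPKM, in B-cell library 15.

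The sex, neuter status and age of the dogs, which the rule did not use, were compared over the 20 B-cell libraries, in models fitted over all 11552 genes. No member passed for any of them (limma, Benjamini-Hochberg adjusted p under 0.05). For sex 0 of 100 members passed, as did 0% of all genes. At an unadjusted p under 0.05 limma gave 2 members, beside 10.4% of all genes. The lowest adjusted p of a member was 0.387. For neuter status 0 members passed beside 0.0346% of all genes, which is 4 genes, and 2 members had an unadjusted p under 0.05 beside 14.2% of all genes. For age 0 members passed beside 0% of all genes, and 3 members had an unadjusted p under 0.05 beside 4.18%. The shares of members were thus at or below those of all genes.

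Without B-cell library 8 the members leaned the other way for sex and neuter status, with 0 members called for any of the 3. For sex the median log2 change of the members, females against males, was 0.19 with library 8 (69 of 100 above 0) and -0.19 without it (36 of 100). Over all genes the median was 0.03 with it and 0.02 without it. Many members co-vary, so counts of members above 0 are not independent and are a description. At an unadjusted p under 0.05 limma then gave 5 members, 2 higher and 3 lower in females, beside 9.93% of all genes (0% passed after adjustment). For neutered against intact dogs the median was 0.12 with library 8 and -0.15 without it, where 3 members had an unadjusted p under 0.05 in limma beside 13.4% of all genes (0.00866% passed). For age the median was 0.04 per year with library 8 and -0.01 without it, where 4 members had an unadjusted p under 0.05 in limma beside 4.93% of all genes (0% passed). For sex and age, leaving out no other single B-cell library turned the median below 0. For neuter status it was also below 0 without library 5 (-0.26, 37 of 100 above 0). Over all genes the median for neuter status was 0.02 with library 8 and 0.006 without it. For age the median over all genes was 0.002 per year with library 8 and 0.0003 without it.

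Wide spread limits what these models could detect in the members. For females against males, the 95% interval of the log2 change had a median half-width of 1.16 over the members, compared with 0.35 over all genes. For neutered against intact dogs the median half-width was 1.61 over the members, and for age 0.19 per year. For ENSCAFG00000006142 the log2 change for females against males was 0.55, with an interval from -1.91 to 3.02 (limma adjusted p = 0.891).

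In the 57-gene group the dogs of each kind overlapped. The group mean ran from 1.22 to 6.58 in the 9 females (median 2.20) and from 1.03 to 4.71 in the 11 males (median 1.69). It ran from 1.22 to 3.86 in the 3 intact dogs and from 1.03 to 6.58 in the 17 neutered dogs. The 3 libraries at the top came from a neutered female aged 10.7 years (library 8), a neutered male aged 8.6 years (library 3) and an intact male aged 7.2 years (library 9). None of the 57 genes had an unadjusted p under 0.05 in limma for sex, neuter status or age, and 0 had an adjusted p under 0.05.

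Technical measures were compared in the same way. The labels give no sequencing batch, but phenotype is written with a hyphen for 8 B-cell libraries and with a space for 12, and all 3 intact dogs carry the hyphen. For this spelling 0 members passed (0% of all genes), with 4 members beside 7.02% of all genes at an unadjusted p under 0.05. Without library 8 the members with an unadjusted p under 0.05 in limma numbered 11, 7 higher and 4 lower with the hyphen, beside 6.69% of all genes, and 0 passed (0% of all genes). The median log2 change of the members, hyphen against space, was 0.09 with library 8 and 0.33 without it, beside -0.02 and -0.004 over all genes. Leaving out library 3 or library 9 instead, both written with a hyphen, gave medians of -0.12 and -0.07. The group mean ran from 1.03 to 4.71 with the hyphen and from 1.25 to 6.58 with the space. For relative depth 0 members passed (0% of all genes), with 5 members beside 9.25% of all genes at an unadjusted p under 0.05 and a lowest adjusted p in limma of 0.107. Without B-cell library 13, 1 member passed for depth in limma (adjusted p = 0.0448) beside 0.0173% of all genes, which is 2 genes.

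The lean of the members with depth turned over without library 8. The median log2 change per log2 unit of depth was 0.20 with it (65 of 100 above 0) and -0.60 without it (22 of 100). Over all genes the median was -0.04 with it and -0.08 without it. Many members co-vary, so these counts too are a description. Without it 7 members, 1 higher and 6 lower, had an unadjusted p under 0.05 in limma beside 11.4% of all genes, and 0 passed (0% of all genes). The 2 deepest B-cell libraries, 8 at 2.21 and 11 at 2.16, had the highest and the lowest group mean. Libraries 3 and 9 had relative depths of 1.12 and 0.930, the latter the lowest of the 20. The part of depth in the group level was not tested beyond these models.

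The contrast between phenotypes was part of the rule. With limma 13 members had an adjusted p under 0.05 for the difference between phenotypes, of which 11 had their higher mean in B-cell and 2 in T-cell libraries, beside 40.4% of all genes, and 2 of the 13 were in the group. A limit on the difference of means fixes such a count in part, and nothing is read from it. Without B-cell library 8 the count was 24, of which 13 had their higher mean in T-cell libraries, beside 42.6% of all genes.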

How the data were processed

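RNA was extracted with a Qiagen RNeasy kit for Illumina TruSeq libraries, per the labels' protocols. The submitters' processing notes name FastQC 0.11.2, TopHat 1.4.1, Cuffdiff and the build CanFam3.1. Not given in the sources used here were tool options, annotation release and scaling. Per Ensembl gene, the authors deposited FPKM values. The 29 columns named by sample titles were used, and 49 columns matching no title were left out.

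Values were analysed as log2(FPKM + 1), a pseudocount that understates changes of low genes. Genes with at least 1 FPKM in 5 libraries were tested with limma 3.58.1 in R 4.3.3 (variance trend, robust moderation, two-sided), with Benjamini-Hochberg adjustment over 11552 genes and a threshold of 0.05. Over the 20 B-cell libraries, sex was fitted with neuter status, neuter status with sex, and age with both. Label spelling and log2 relative depth were fitted alone. Relative depth is the most frequent ratio between libraries of FPKM below 0.2, and pairwise ratios lay within 0.05 log2 units of the fitted depths in 100% of 812 ordered pairs. It includes any scaling by the authors. Groups of members came from average linkage on 1 minus Pearson r, divided at 0.5.

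The members, lists and tests were chosen with earlier results of these data known. With no symbols, the rule for genes given by ID took the 2 top-ranked members with upward and the 2 with downward skewness over B-cell libraries, and the genes of ranks 3 and 5 were singled out after their values were seen. The 19 gene lists could not be tested. The limma models and the member rule were tested on simulated data. Alternatives were another pseudocount, filters, scalings, moderation, covariates and measure of spread, and each library left out. The highest correlation between 2 libraries was 0.978, so none was a copy of another. Software was Python 3.11.15 with pandas 2.3.3, numpy 2.4.6, matplotlib 3.10.9 and scipy 1.17.1.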

Additional observations from a re-analysis of the deposited data

Results flagged for a closer look

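A gap test for single libraries (Dixon) was run on 7 measures in the 9 T-cell libraries, the 9 B-cell females and the 8 B-cell libraries whose label has a hyphen, 21 tests in all. It singled out 4 values. In unselected measures chance gives about 1 in 20, a rate that does not apply to genes chosen and grouped on these libraries. Of these, 3 concern B-cell library 8 among the B-cell females. Its mean log2(FPKM + 1) of the 57-gene group was 6.58, with the next female at 3.105. Its share of FPKM in that group was 2.37%, with the next at 0.319%. Its relative depth was 2.21, with the next female at 1.61. Among the males B-cell library 11 had 2.16, so library 8 stood apart in depth only among the females. These 3 values come from 1 library, and the first and second were largely fixed by the choice of the genes, so only the depth is independent of it. The fourth is T-cell library 7 for ENSCAFG00000002100, at 0.030 in log2(FPKM + 1) where the other 8 T-cell libraries were listed at 0. With 8 values at 0 any other value is singled out, so this carries no information.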

How the results depend on the processing

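Of the 100 members, the rule chose 60 again with a pseudocount of 0.1, 76 with no filter, 83 with quantile normalization, 95 with median-of-ratios scaling and 32 with the median absolute deviation in place of the SD. With a mean of at least 5 FPKM it chose 47, since 53 members fall below that mean. With each library left out in turn it chose 66 to 99, the fewest without B-cell library 8, and leaving out B-cell libraries 3, 8 and 9 together gave 42, of which 3 were in the 57-gene group. The largest group held 40 to 58 genes in 27 alternatives, 40 without those 3 libraries and 55 to 58 with each library left out. The second largest group held 4 genes in the main setting. It held 6 at a tree height of 0.6 and without B-cell library 1 or 7, and 7 without those 3 libraries. No member passed for sex, neuter status, age or label spelling in any alternative. For depth, leaving out each library gave 0 to 1 members, with 1 without B-cell library 13, beside 0 to 4 of all genes. Over all genes neuter status gave 4 genes in limma, 0 to 40 in the other settings and 0 to 125 with each library left out. For phenotype 13 members passed, beside 4664 of 11552 genes, and 16 with a pseudocount of 0.1, beside 4597. With a mean of at least 5 FPKM, which tests 47 members, 2 passed beside 3749 of 8750 genes. With each library left out 10 to 24 members passed, beside 4313 to 5047 of 11552 genes. With a pseudocount of 0.1 the group means of B-cell libraries 8, 3 and 9 exceeded the median of the other 17 by 5.63, 3.68 and 2.71, in place of 4.77, 2.89 and 2.04. Apart from the filter, whose construction removes members, the cause of these changes was not tested. Leaving out libraries 3, 8 and 9 together, the other tree heights (0.4 and 0.6) and the group's scalings and left-out libraries were chosen after seeing the data. With a pseudocount of 0.1 the excess of SD of ENSCAFG00000002100 was 1.69 in place of 0.70. The 4 genes given by ID kept the larger SD in B-cell tumours in the pseudocount, filter, scaling and left-out-library alternatives that held them. They were not examined with the median absolute deviation or without libraries 3, 8 and 9 together. The rule chose these genes by that excess, so its persistence supports nothing. Fragment counts behind FPKM values near 0 are unknown, which limits the low members most. No paired analysis was possible because library numbers were given in accession order and pair no samples.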
